A study of Mus musculus with 6 samples.

Results

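Adhesion G protein-coupled receptors were followed in RNA-seq libraries of cultured mouse aortic cells from female and male animals. The members were the protein-coding genes of the deposited table whose symbol is Adgr followed by a subfamily letter and a number, and there were 27 of them among 54532 genes. The rule used the names alone. Of the 27, 24 had a count in at least 1 library and 3, Adgrg3, Adgrf3 and Adgrg4, had none.

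Adhesion receptors join a long extracellular region to a heptahelical membrane domain of the G protein-coupled kind. In most of them the chain is cut during maturation just before the membrane, at an autoproteolysis site, and the freed end on the membrane side can act as a tethered agonist when the outer part is pulled away by a ligand on a neighbouring cell or in the matrix. In vessels the family is best known from Adgrl4 and Adgrf5, which are enriched in endothelium, and from Adgra2, which endothelial cells of the developing brain need to form a barrier.

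The groups were 3 female and 3 male libraries, all from wild-type mice and from cultures labelled as mouse aortic endothelial cells (MAEC). All grew untreated in F-12 medium supplemented with serum, heparin and growth factors for endothelial cells. The labels give neither the age of the mice nor whether each library stands for its own animal or culture, so the p-values reflect no more than the spread among these libraries, which may be technical. Library totals ran from 17410996 to 22993574 counts in female and from 18138999 to 22897700 counts in male, and 3 counts in a single library, taken as the floor, corresponded to 0.128 to 0.171 CPM (counts scaled to a common, TMM-adjusted library total).

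Markers did not follow the endothelial label. Of 12 endothelial markers, 11 were below 1 CPM throughout. Robo4, Cldn5, Tie1 and Cdh5 had no count in any library, and the summed level of the list was 2.35 to 4.33 CPM in female and 4.21 to 6.60 CPM in male libraries. All 8 fibroblast markers were tested, with a summed level of 27699 to 35297 CPM in female and 15268 to 23086 CPM in male libraries (4 higher, 1 lower, 3 not called). Most of that sum was Fn1 (20487 to 27755 CPM in female, 10282 to 17734 CPM in male), which was not called. The list was not uniform between the sexes. Lum (28.9-fold), Dcn (3.59-fold), Fbln1 (2.57-fold) and Pdgfra (1.38-fold) were called higher in female, and Pdgfrb was called lower (2.36-fold). Of the other marker lists, smooth muscle markers summed to 118 to 121 CPM in female and 142 to 176 CPM in male libraries, and neural and glial markers to 13.5 to 16.6 CPM in female and 24.2 to 38.7 CPM in male. Most of the smooth muscle sum was Smtn (110 to 114 CPM in female, 121 to 144 CPM in male, not called). Myh11, Cnn1 and Myocd of that list were below 1 CPM throughout. Des of that list had 56 counts over the female and 4 over the male libraries and was not tested. Macrophage and leukocyte markers summed to 29.4 to 38.4 CPM in female and 12.7 to 19.6 CPM in male, and mesothelial and epithelial markers to 7.81 to 11.4 CPM in female and 2.08 to 4.38 CPM in male. Ptprc, Itgam, Fcgr1 and Cd3e of the macrophage and leukocyte list and Gfap and Rbfox3 of the neural and glial list were at 0 counts in all 6. By edgeR's test at an adjusted p under 0.05, none of the 2 endothelial markers tested was called, 1 of 4 smooth muscle markers fell (Acta2, smooth muscle actin, 3.23 CPM in female and 20.3 CPM in male on average) and 1 of 2 neural and glial markers fell (Tubb3, a neuronal tubulin, 12.3 CPM in female and 27.2 CPM in male). Of 4 macrophage and leukocyte markers tested, 2 rose, Cd14 (17.9 CPM in female and 7.70 CPM in male) and Lyz2 (12.7 CPM in female and 5.22 CPM in male), while the macrophage receptor Csf1r had 22 counts over the female and 53 over the male libraries and was not called. Mrc1 of the same list had 1 count over the female and 26 over the male libraries and was not tested. Of 2 mesothelial and epithelial markers tested, the keratin gene Krt18 rose (480 counts over the female and 30 over the male libraries). Krt18 passed the filter through the female libraries alone, so a lower male level was part of how it entered the test. Msln and Upk3b went the other way, with 0 counts in female libraries and 17 and 18 counts over the male libraries. The part of these differences in the results on the receptors was not tested, and in bulk RNA fewer cells of a type and less RNA per cell cannot be told apart. Male replicate 3 was the least like the rest of its group, with correlations of log2(CPM + 1) of 0.977 and 0.984 to them, against at least 0.992 among female libraries. It had the lowest male level of 9 of the 11 tested members, where 41.3% of all tested genes had theirs. Female replicate 3 likewise had the lowest female level of 7 of the 11, against 35.4% of all tested genes.

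The filter on low counts was passed by 14932 of all 54532 genes. Of protein-coding genes with a RefSeq promoter entry, 9901 passed and 6596 did not. Among the 27 members, transcripts of 11 passed. Of these 11, 1 rose in female (Adgrl2), 7 fell (Adgra2, Adgra3, Adgrg6, Adgre5, Adgrd1, Adgrf5 and Adgrl3) and 3 did not pass the test (Adgrl1, Adgrb2 and Adgrg2), by edgeR's quasi-likelihood test at a Benjamini-Hochberg adjusted p under 0.05 over all 14932 tested genes. Of all tested genes, 18.3% were called in either direction, 9.68% higher in female and 8.62% lower. Adgrd1, Adgrf5 and Adgrl3 passed the filter through the male libraries alone, so a lower female level was part of how they entered the test. Of the 8 members that passed in both sexes 1 rose, 4 fell and 3 were not called. Among all 13014 genes that passed in both sexes 17.3% were called. The median log2 fold change (female over male throughout) of those 8 members was -0.49, against -0.01 over those 13014 genes, and 6 of the 8 had no overlap between the sexes in CPM, against 35.3% of the 13014. Without a single library the number that fell was 4 (without female replicate 2, female replicate 3, male replicate 1 or male replicate 2), 5 (without female replicate 1) or 9 (without male replicate 3), while Adgrl2 alone rose in each.

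**Figure D1:**
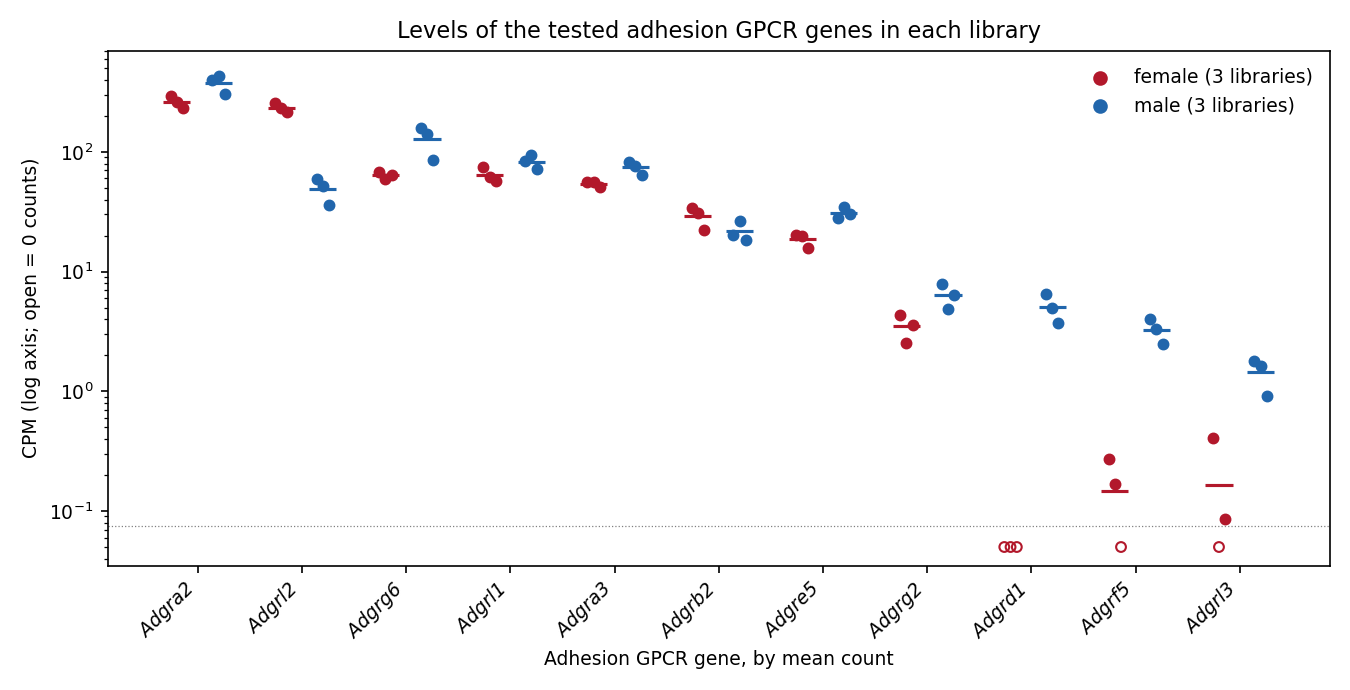
CPM (vertical log axis) of the 11 tested adhesion receptor genes, with 3 female points left and 3 male points right of each tick, a line at each mean and open points for 0 counts. Adgrl2 sits above its male points in every female library, and Adgrd1 has open points only in female.

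The sequence before the start of the genes was looked at as a feature that the name rule did not use. A RefSeq promoter window (GRCm38.p6) was found for 20 of the 27 members, 24 windows in all; none was found for Adgra2, Adgrb1, Adgrd1, Adgre1, Adgre5, Adgrf2 and Adgrf3. In the 250 bases before the start, 6 of the 8 tested members with a window held at least 20 CG dinucleotides in a window (Adgrl3 36, Adgrb2 35, Adgrg6 32, Adgrg2 26, Adgra3 25 and Adgrl1 21), while the 12 untested members held 0 to 15. This threshold was set after the counts were seen. CG reads the same on both strands, and 92.1% of all 32851 windows in the RefSeq table held at least 1, their median was 6, and 17.9% reached 20. Over all protein-coding genes matched by symbol, 39.7% of 9901 tested genes and 7.47% of 6596 untested genes had a window with at least 20, a split in the same direction. The exceptions among tested members were Adgrl2, with 3 CG, and Adgrf5, with 5 and 7. The listed start of Adgrl2 lies inside the gene's span in the count table, so that other starts may be used. The same holds for Adgrg6, Adgrl3, Adgra3 and the Adgrf5 window with 7 CG. Among untested members it holds for Adgrf1, Adgrg1, Adgrg4 and Adgrv1. In Adgra3, Adgrf1 and Adgrv1 the start lies only slightly inside. The letters TATAAA, on either strand, were in 1 window each of Adgrl2 and Adgrl3 and in 12.4% of all windows.

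Windows of 4 members are shown to set a CG-rich start of well-detected genes (Adgrg6 and Adgra3) beside the CG-poor start of receptor genes known from endothelium that were low or near 0 here (Adgrf5 and Adgrl4). Over the tested members the CG count followed neither the call nor the level throughout. The CG-rich Adgrb2, Adgrg2 and Adgrl1 were not called, and the CG-poor Adgrf5 was called lower like Adgrg6 and Adgra3. Adgrl3, with the most CG of the members with a window, was rare. Each is the 250 bases before the RefSeq start, 5′ to 3′ on the gene's strand, with CG in capitals.
Adgrg6 (chr10:14545037-14545286, minus strand): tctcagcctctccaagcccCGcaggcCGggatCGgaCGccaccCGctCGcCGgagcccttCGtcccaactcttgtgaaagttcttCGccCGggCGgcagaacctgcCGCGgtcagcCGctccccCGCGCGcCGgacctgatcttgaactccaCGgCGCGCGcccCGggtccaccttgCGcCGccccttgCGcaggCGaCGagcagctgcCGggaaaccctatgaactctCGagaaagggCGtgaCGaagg
Adgra3 (chr5:50058997-50059246, minus strand): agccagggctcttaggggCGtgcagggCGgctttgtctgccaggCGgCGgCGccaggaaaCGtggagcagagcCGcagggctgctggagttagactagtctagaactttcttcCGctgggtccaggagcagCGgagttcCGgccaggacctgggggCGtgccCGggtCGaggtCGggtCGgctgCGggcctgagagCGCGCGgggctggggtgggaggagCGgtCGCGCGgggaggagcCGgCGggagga
Adgrf5 (chr17:43360181-43360430, plus strand): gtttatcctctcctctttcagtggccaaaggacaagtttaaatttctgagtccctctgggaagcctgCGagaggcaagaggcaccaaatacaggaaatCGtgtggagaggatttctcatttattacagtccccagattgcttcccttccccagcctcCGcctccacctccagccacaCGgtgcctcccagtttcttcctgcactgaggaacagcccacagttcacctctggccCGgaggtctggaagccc
Adgrl4 (chr3:151437632-151437881, plus strand): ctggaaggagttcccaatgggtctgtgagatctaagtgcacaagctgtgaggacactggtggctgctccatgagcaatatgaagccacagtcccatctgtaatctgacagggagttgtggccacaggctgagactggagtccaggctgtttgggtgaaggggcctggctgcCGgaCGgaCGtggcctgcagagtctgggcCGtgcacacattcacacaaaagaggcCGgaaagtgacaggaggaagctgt
A match of letters is a description of the sequence, and the starts used in these cells were not measured.

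**Figure D2:**
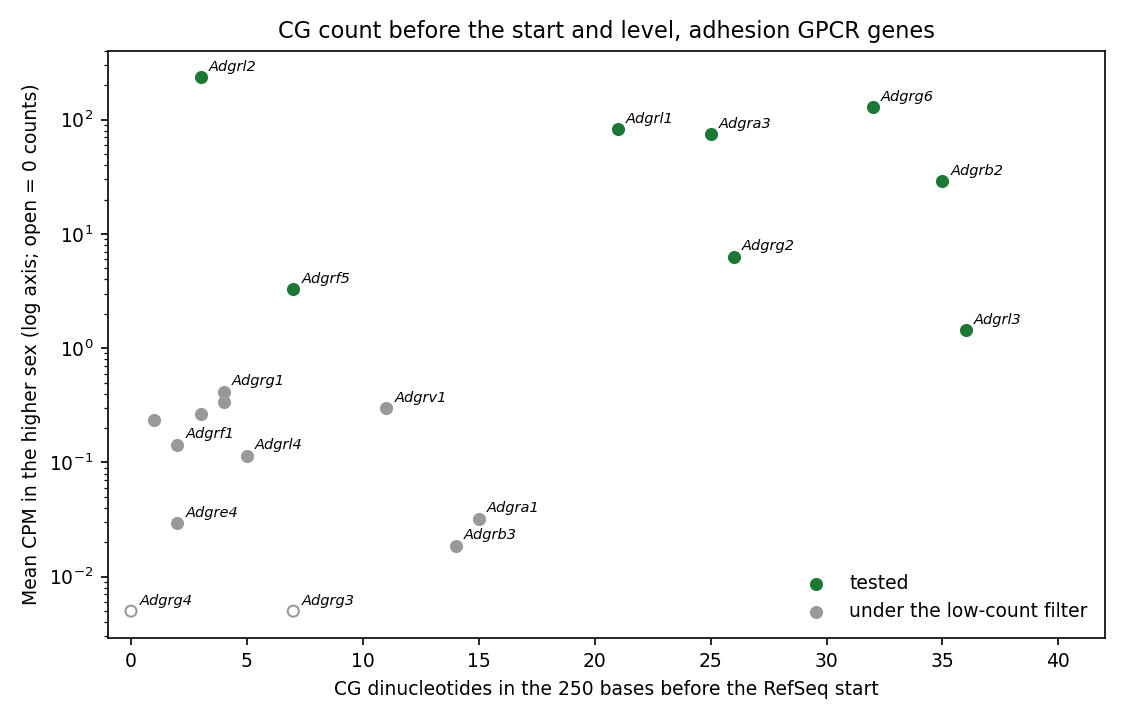
CG dinucleotides in the 250 bases before the RefSeq start (horizontal, the highest window of each gene) against mean CPM in the sex with the higher mean (vertical log axis, open points for 0 counts) for the 20 members with a window. Members with 21 to 36 CG are all tested ones (green), untested members (grey) have 0 to 15, and 3 crowded grey points (Adgrg5, Adgrf4 and Adgrg7) carry no label.

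Subfamily A supplied most of the receptor transcripts. Adgra2 (chromosome 8, 27085583 to 27123436), the receptor that with Reck lets cells respond to Wnt7 ligands, was the most abundant member per length in both sexes. It stood at 293, 260 and 233 CPM in female replicates 1 to 3, against 401, 427 and 305 CPM in male replicates 1 to 3. Every female library was under every male one, and male replicate 3 was the closest to the female range. Adgra2 fell, with a log2 fold change of -0.53 ± 0.15 (edgeR's adjusted p = 0.0353). That call was lost without any one library other than male replicate 3 (adjusted p = 0.0535 to 0.165). Per length, Adgra2 averaged 45.4 ± 5.15 RPKM (CPM per kilobase of the gene length in the table) in female and 65.4 ± 11.1 RPKM in male libraries (SD, n = 3 each).

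Adgra3 (chromosome 5, 49959956 to 50059006), an orphan receptor of the same subfamily tied to planar cell polarity in zebrafish, moved the same way by a like amount. It had 55.6, 55.8 and 50.4 CPM in female and 81.8, 76.3 and 64.6 CPM in male libraries, without overlap. Its log2 fold change was -0.46 ± 0.12 (edgeR's adjusted p = 0.0252), and the call was lost without each library other than male replicate 3 (adjusted p = 0.0635 to 0.12). Adgra1 had 2 counts, both in male replicate 1.

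The latrophilins, subfamily L, went in different directions. These receptors hold cells together by binding teneurins and FLRT proteins and are best known from synapses. Adgrl2 (chromosome 3, 148815583 to 148990555) was the only member that rose, with 258, 231 and 214 CPM in female against 59.8, 51.4 and 36.2 CPM in male libraries. The lowest female library was far above the highest male one. Its log2 fold change was 2.25 ± 0.18, or 4.76-fold (edgeR's adjusted p = 2.12e-05), and it stayed called in all 14 alternatives run.

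Adgrl1 (chromosome 8, 83900105 to 83941954), the neuronal receptor of the spider toxin latrotoxin, was not called. Its levels of 74.7, 62.2 and 56.9 CPM in female overlapped those of 83.3, 93.4 and 71.3 CPM in male libraries (-0.36 ± 0.14, edgeR's adjusted p = 0.125, and 0.00289 without male replicate 3). With limma-voom and quality weights it was called lower (-0.52 ± 0.09, adjusted p = 0.000315). Adgrl3 (chromosome 5, 81020138 to 81825133), which in neurons binds FLRT3 and teneurins, was rare. It had 9, 0 and 2 counts in female and 37, 37 and 16 counts in male libraries, and fell (-3.04 ± 0.80, edgeR's adjusted p = 0.0258). Adgrl3 passed the filter through the male libraries alone, so a lower female level was part of how it entered the test. Its call was lost without female replicate 2, female replicate 3, male replicate 1 or male replicate 2 (adjusted p = 0.0699 to 0.115). Adgrl4, the endothelial member, was under the filter, with 1, 0 and 7 counts in female and 0, 3 and 0 counts in male libraries.

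The balance within the latrophilins was accordingly turned round. The ratio of Adgrl2 to Adgrl1 per length was 2.09, 2.24 and 2.27 in female and 0.434, 0.333 and 0.307 in male libraries. Adgrl2 was above Adgrl1 in each female library and below it in each male library. Summed over the subfamily, the level was 24.0 ± 2.60 RPKM in female and 13.2 ± 1.99 RPKM in male libraries (SD, n = 3 each).

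In subfamily G, Adgrg6 carried nearly all of the signal. It is the receptor that drives Schwann cells to myelinate through cyclic AMP and that binds type IV collagen. Adgrg6 (chromosome 10, 14402583 to 14545659) stood at 68.5, 59.5 and 63.9 CPM in female and 158, 142 and 85.9 CPM in male libraries. The sexes did not overlap, and male replicate 3 lay well under the other male libraries. Adgrg6 fell by 1.01 ± 0.20 on the log2 scale (edgeR's adjusted p = 0.00645), and the call held without each library in turn (adjusted p up to 0.0405).

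Adgrg2 (X chromosome, 160390690 to 160498070), known from fluid transport in the male reproductive tract, had 4.34, 2.53 and 3.59 CPM in female and 7.84, 4.85 and 6.31 CPM in male libraries. These values did not overlap, yet the gene was not called (-0.85 ± 0.27, edgeR's adjusted p = 0.0566). It was called lower without male replicate 3 (adjusted p = 0.0213), with DESeq2 (0.0239), with limma-voom (0.0194) and with no filter (0.0119). Adgrg1, the cortical development receptor that binds type III collagen, had 6, 1 and 4 counts in female and 10, 11 and 5 counts in male libraries and was not tested. Adgrg5 had 4, 5 and 13 counts in female and 3, 1 and 0 in male, and Adgrg7 6, 4 and 5 in female and 3, 8 and 0 in male.

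Of subfamily E, which is typical of blood cells, a single member was well detected. Adgre5 (chromosome 8, 83723251 to 83741326), the CD55 receptor also known as CD97, had 20.1, 19.8 and 15.7 CPM in female and 28.2, 34.4 and 30.3 CPM in male libraries. The sexes did not overlap, and here male replicate 3 was between the other male libraries. Adgre5 fell by 0.74 ± 0.15 on the log2 scale (edgeR's adjusted p = 0.00638, and up to 0.0383 without a library). Adgre1, the classical macrophage surface marker, had 4 counts in male replicate 1 and 0 in the other libraries, and Adgre4 had 2 counts, in male replicate 2.

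Subfamily B, the brain-specific angiogenesis inhibitors, was present as Adgrb2 (chromosome 4, 129984870 to 130022633). It had 33.9, 30.6 and 22.2 CPM in female and 20.4, 26.7 and 18.5 CPM in male libraries, which overlapped, and was not called (0.40 ± 0.20, edgeR's adjusted p = 0.211). Adgrb1, a receptor for the uptake of dying cells, had 1, 1 and 5 counts in female and 2, 5 and 0 in male libraries, and Adgrb3 had 1 count in female replicate 2.

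Adgrd1 and Adgrf5, like Adgrl3, were low receptors that passed the filter through the male libraries alone. Adgrd1 (chromosome 5, 129096750 to 129204599), a receptor that raises cyclic AMP and is needed in the mouse oviduct for embryo transport, had 0 counts in all 3 female libraries, against 135, 113 and 65 counts (6.53, 4.99 and 3.70 CPM) in male libraries. Against 3 counts over the female group its female level was lower by at least 107-fold (edgeR's adjusted p = 7.82e-05), and the call held without each library in turn (up to 0.000872). Adgrf5 (chromosome 17, 43360451 to 43459557), which limits surfactant in the lung and is also found in endothelium, had 6, 3 and 0 counts in female and 83, 75 and 44 counts in male libraries. Both genes were clear of 0 in every male library, male replicate 3 included. Adgrf5 fell by 4.45 ± 0.66 on the log2 scale (edgeR's adjusted p = 0.00107, and up to 0.00752 without a library).

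Of the other members of subfamily F, Adgrf1 had 1, 0 and 0 counts in female and 3, 0 and 5 in male, Adgrf4 3, 1 and 14 in female and 4, 7 and 0 in male, and Adgrf2 3 counts in female replicate 2. Adgrv1, the very large receptor of inner ear hair bundles, had 10, 7 and 1 counts in female and 1, 1 and 0 in male libraries. None of the 16 untested members exceeded 14 counts or reached 1 CPM in any library. In a fit with no filter on low counts, 13 of them had a value and none was called (edgeR's lowest adjusted p = 0.285, and 0 at an unadjusted p under 0.05), while the other 3 had no count at all. At this depth none of these 16 could be said to differ, or not to differ, between the sexes.

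**Figure D3:**
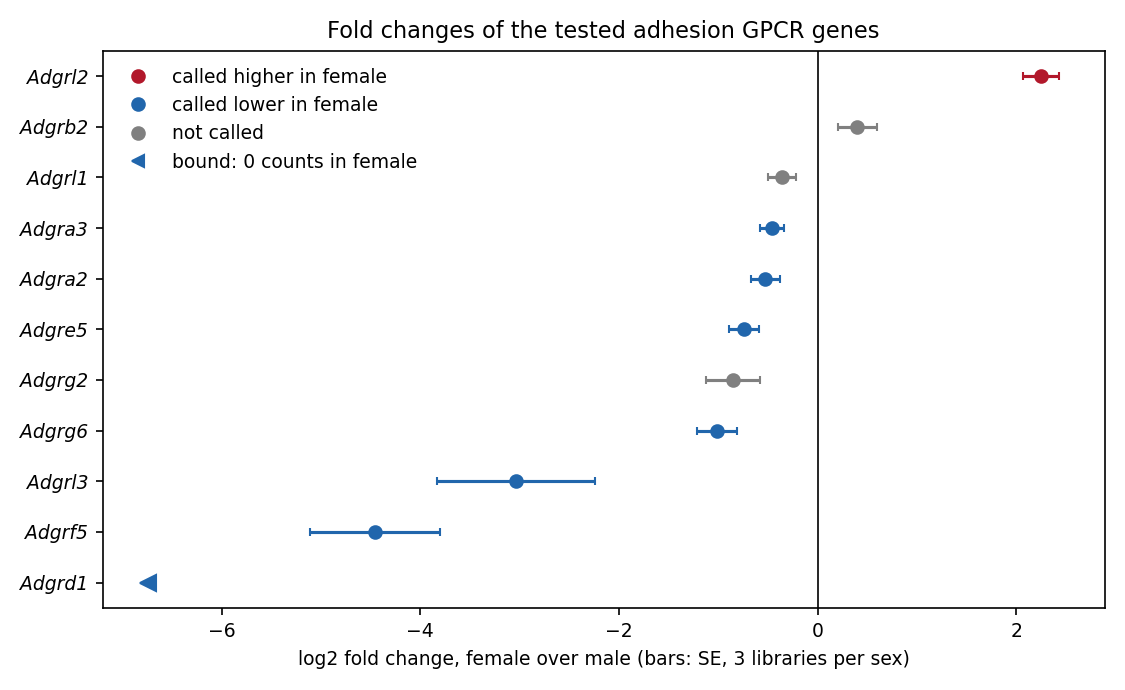
log2 fold change, female over male (horizontal, bars SE from edgeR, 3 libraries per sex), of the 11 tested members, coloured by call. Adgrl2 lies at 2.25, the 7 called lower run from -0.46 (Adgra3) to beyond the bound drawn as an arrow for Adgrd1 (at least 107-fold lower), and grey points were not called.

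Summed over the 27 members, the receptors took 0.0824, 0.0738 and 0.0674% of counts in female and 0.0841, 0.0859 and 0.0607% in male libraries. Per length the sum was 91.7 ± 9.69 RPKM in female and 112 ± 18.1 RPKM in male libraries (SD, n = 3 each), with male replicate 3 (91.7 RPKM) inside the female range of 82.4 to 102. Adgra2 made up 49.4 ± 0.393% of the sum in female and 58.2 ± 0.826% in male libraries, and Adgrl2 18.0 ± 0.254% in female and 3.06 ± 0.389% in male. In the shares of Adgra2 and Adgrl2 male replicate 3 was like the other male libraries, at 57.6% and 2.78%. Shares of the other members were not compared.

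The order of the levels per length was Adgra2, Adgrl2, Adgrl1, Adgra3, Adgrg6, Adgre5, Adgrb2, Adgrg2, Adgrf5, Adgrl3 and Adgrd1 in female. In male it was Adgra2, Adgrg6, Adgrl1, Adgra3, Adgre5, Adgrl2, Adgrb2, Adgrg2, Adgrd1, Adgrf5 and Adgrl3. Neighbours in the female order overlapped between Adgrl1 and Adgra3, between Adgrg6, Adgre5 and Adgrb2, and between Adgrf5, Adgrl3 and Adgrd1. In the male order they overlapped from Adgrg6 through Adgre5, between Adgrl2 and Adgrb2, and between Adgrd1 and Adgrf5.

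**Figure D4:**
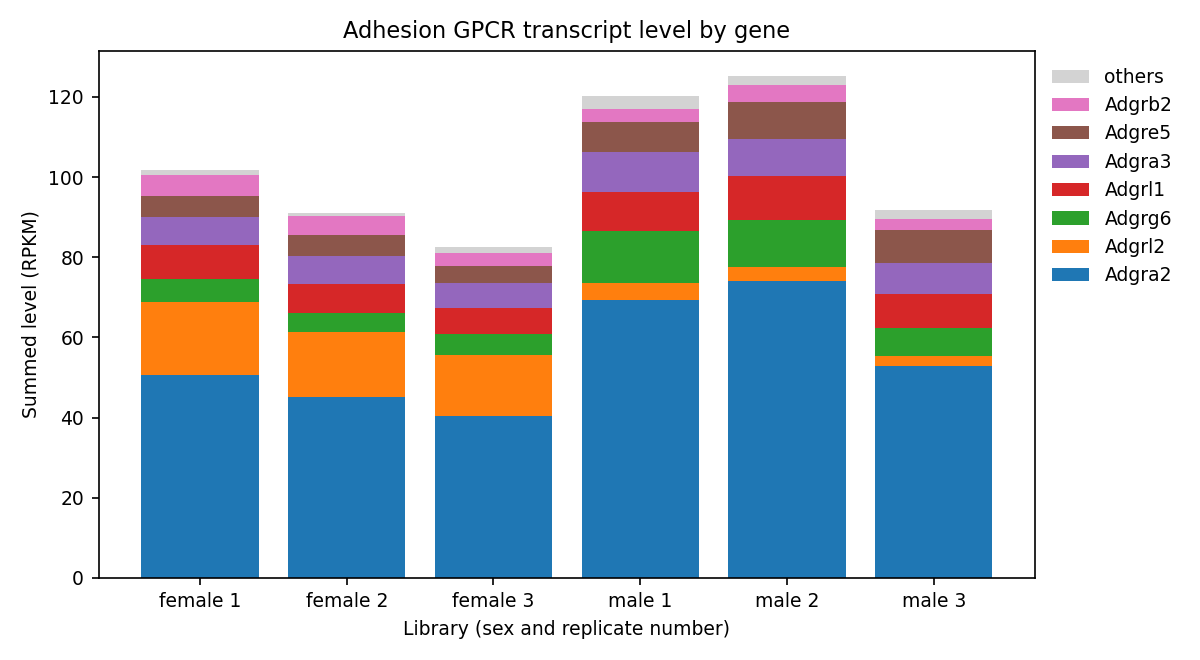
Summed RPKM of the adhesion receptor genes (vertical, bars from 0) in each library, female left and male right, split by gene. Adgra2 fills 49.0 to 49.8% of each female bar and 57.6 to 59.1% of each male bar, and the Adgrl2 segment is the wider one in female.

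Some members lie beside one another on a chromosome. Adgre5 and Adgrl1 on chromosome 8 are 158778 bases apart with no protein-coding gene between them, and Adgre5 was called while Adgrl1 was not, a difference that was not tested itself. Adgrl2 and Adgrl4 on chromosome 3 also have no protein-coding gene between them, over 2447331 bases, and only Adgrl2 was above 1 CPM. Adgrg5, Adgrg1 and Adgrg3 follow one another on chromosome 8, and all 3 were under the filter.

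Genes on the opposite strand could change some of these counts, since the sources used here do not give the strand setting of the counting. In the GENCODE M21 annotation of GRCm38, where all 27 members had the same coordinates as in the table, 13 members span a gene on the opposite strand and 7 of the 11 tested ones share exon bases with one. The largest share was that of Adgre5, with 895 bases (23.8% of its exon bases) in common with Ddx39, a helicase gene that had 594, 518 and 610 counts in female and 542, 621 and 505 in male libraries. Adgrl1 shared 12.9% of its exon bases with Gm10644 (0 to 9 counts per library), Adgrl3 8.91% with Gm16054 (0 or 1 count) and Adgrg6 3.61% with Gm46212 (1 to 4 counts in female, 10 to 25 in male). Adgrl2 shared 1.42% with Gm43573 (4 to 11 counts in female, 0 to 2 in male), Adgrg2 2.60% with Gm15241 (0 to 2 counts) and Adgra2 1.26% with Brf2 (256 to 416 counts in female, 278 to 331 in male). Adgrd1 spans Rps16-ps2 on the opposite strand (1014 to 1443 counts in female, 972 to 1269 in male), with no exon base in common. The tested members with no shared exon base were Adgra3, Adgrb2, Adgrd1 and Adgrf5, of which Adgra3, Adgrd1 and Adgrf5 were called, all lower. Adgrd1 and Adgrf5 passed the filter through the male libraries alone, so a lower female level was part of how they entered the test. The call of Adgra3 was lost without each library other than male replicate 3. Of all tested genes, 8.62% were called lower.

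Around the receptors, ligands and signalling genes from 4 lists were read from the same fit. Of 91 listed genes 72 were tested, of which 8 rose and 13 fell, or 29.2% called against 18.3% of all tested genes. Without male replicate 3 the counts were 11 and 29, and without one of the other libraries 4 or 5 rose. The lists were chosen with earlier results of these data known. Receptors of the Celsr type, the cadherin-bearing subfamily C that the name rule leaves out, were low. Celsr3 had a log2 fold change of -1.55 ± 0.52 (edgeR's adjusted p = 0.0726) and was not called, and Celsr1 (12 counts in female, 14 in male) and Celsr2 (6 in female, 21 in male) were under the filter.

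Of 32 ligands and binding partners, 20 were tested, 3 rose, 7 fell and 10 were not called, with a median log2 fold change of -0.14. Partners of the latrophilins split. Flrt3 had 0.411, 0.787 and 0.683 CPM in female and 18.0, 17.0 and 11.8 CPM in male libraries, without overlap (-4.64 ± 0.29, edgeR's adjusted p = 4.58e-06). It passed the filter through the male libraries alone, so a lower female level was part of how it entered the test. The teneurin gene Tenm3 had 187, 145 and 130 CPM in female and 79.5, 75.7 and 36.6 CPM in male libraries, and rose (1.26 ± 0.27, edgeR's adjusted p = 0.00858). Flrt2 (0.15 ± 0.20, edgeR's adjusted p = 0.686) and Tenm4 (-0.71 ± 0.47, 0.362) were not called.

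The type IV collagen genes, whose product binds Adgrg6, were lower in female like the receptor. Col4a1 stood at 450, 448 and 404 CPM in female and 1070, 1234 and 1018 CPM in male libraries (-1.35 ± 0.12, edgeR's adjusted p = 3.57e-05), and Col4a2 fell by 1.02 ± 0.12 on the log2 scale (edgeR's adjusted p = 0.000208). The laminin gene Lama2, of another Adgrg6 ligand, rose (1.33 ± 0.24, edgeR's adjusted p = 0.004), and the prion protein gene Prnp was not called (-0.32 ± 0.10, edgeR's adjusted p = 0.0514). Col3a1, the ligand gene of Adgrg1, rose to 4976 ± 227 CPM in female, against 2014 ± 166 CPM in male libraries (SD, n = 3 each; edgeR's adjusted p = 4.08e-05), while Adgrg1 itself was at no more than 11 counts per library.

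Partners of the other receptors included called and uncalled genes. Thy1, a surface protein that binds Adgre5, fell by 0.50 ± 0.12 on the log2 scale (edgeR's adjusted p = 0.0208, and up to 0.0916 without a library, the call being lost without any female library or male replicate 2). Cd55 had 79.5, 75.0 and 86.1 CPM in female and 65.2, 63.1 and 64.4 CPM in male libraries and was not called (0.32 ± 0.10, edgeR's adjusted p = 0.0607). Reck, the partner of Adgra2, was not called (0.08 ± 0.13, edgeR's adjusted p = 0.749), and Wnt7a had 0 counts and Wnt7b 5 in female and 11 in male libraries. Ptk7, a partner of Adgrd1, was not called (0.03 ± 0.14, edgeR's adjusted p = 0.899). The Nogo receptor genes Rtn4rl1 (-2.69 ± 0.27, edgeR's adjusted p = 9.86e-05) and Rtn4rl2 (-0.77 ± 0.21, 0.03, and up to 0.135 without female replicate 1, female replicate 3 or male replicate 2), whose family binds subfamily B receptors, fell.

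**Figure D5:**
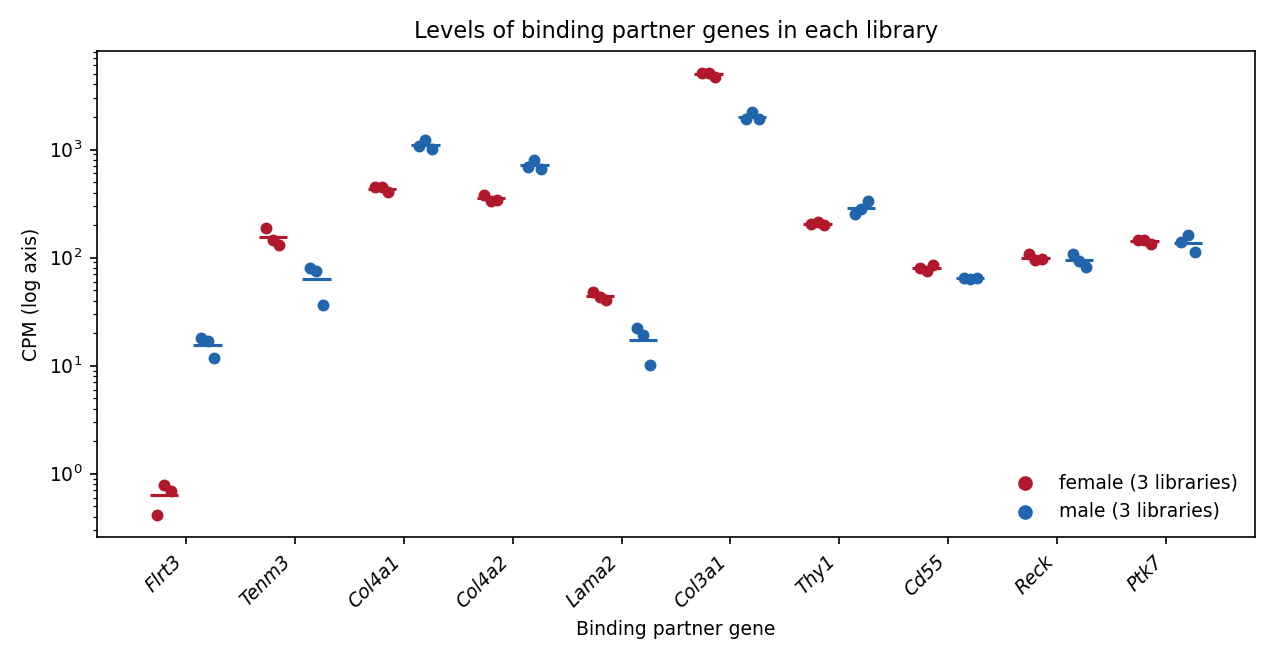
CPM (vertical log axis) of 10 binding partner genes, with 3 female points left and 3 male points right of each tick and a line at each mean. The genes were chosen after their values were seen to show partners of tested receptors and Col3a1. Flrt3 and the type IV collagen genes lie lower in female while Tenm3, Lama2 and Col3a1 lie higher. Flrt3 passed the filter through the male libraries alone.

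Of 28 heterotrimeric G protein subunits, 23 were tested, 3 rose, 2 fell and 18 were not called (median log2 fold change -0.08). Gnai1, of the inhibitory class that lowers cyclic AMP, had 2.15, 1.80 and 2.69 CPM in female and 13.6, 11.4 and 12.9 CPM in male libraries, and fell by 2.50 ± 0.21 on the log2 scale (edgeR's adjusted p = 2.44e-05). Gnai2 of the same class (423 ± 14.4 CPM in female and 574 ± 68.5 CPM in male, SD, n = 3 each) fell by 0.44 ± 0.12 on that scale (edgeR's adjusted p = 0.0272, and up to 0.11 without any female library or male replicate 2). Of gamma subunits, Gng7 rose by 1.04 ± 0.17 on the log2 scale (edgeR's adjusted p = 0.00196), Gng2 by 0.63 ± 0.15 (0.0144, and up to 0.0901 without female replicate 1, female replicate 2 or male replicate 2) and the rare Gngt2 by 3.13 ± 0.85 (0.0305, lost without any library other than male replicate 3, up to 0.148). Gngt2 passed the filter through the female libraries alone, so a lower male level was part of how it entered the test. The stimulatory subunit gene Gnas was not called (0.06 ± 0.23, edgeR's adjusted p = 0.89), nor were Gna12 (-0.15 ± 0.10, 0.404) and Gna13 (-0.18 ± 0.15, 0.463).

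All 28 effector and scaffold genes were tested, of which 2 rose, 4 fell and 22 were not called (median -0.16). The 4 that fell were 3 adenylyl cyclase genes and an arrestin gene. Adcy7 had 119, 104 and 110 CPM in female and 227, 229 and 159 CPM in male libraries (-0.89 ± 0.15, edgeR's adjusted p = 0.00249), and Adcy5 (-1.39 ± 0.24) and Adcy2 (-0.74 ± 0.16) had adjusted p-values of 0.00275 and 0.00815 by edgeR. Arrb1, which ends receptor signalling, fell by 1.12 ± 0.19 on the log2 scale (edgeR's adjusted p = 0.00281). Both that rose were low cyclase genes, Adcy8 (2.07 ± 0.57, edgeR's adjusted p = 0.0316) and Adcy4 (1.23 ± 0.35, 0.0355), and both calls were lost when single libraries were left out. Adcy8 passed the filter through the female libraries alone, so a lower male level was part of how it entered the test. Its call was lost without any female library or male replicate 1. That of Adcy4 was lost without each library other than male replicate 3 (adjusted p up to 0.126 for both). None of the Elmo, Dock1, Arhgef, Magi, Dlg, Shank and Tjp1 genes of the list was called by edgeR.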

How the data were processed

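Poly-A RNA-seq of 3 female and 3 male libraries was used as whole-number read counts per gene, which the authors deposited in 1 table without normalization. HISAT2 2.0.5 and featureCounts 1.5 are named in the submitters' processing notes. The sources used here do not give the build, annotation or strand setting, and per the labels' protocols the library may or may not have marked strand. Gene lengths in bases are those deposited in the same table. Of its identifiers, 99.8% were in GENCODE M21 (GRCm38) and 98.3% of those had the same coordinates there. Groups followed the sample titles. Libraries of a sex differed by more than sampling noise (chi-square per degree of freedom 7.43 to 70.8).

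Counts of all genes were fitted with edgeR 4.0.16 in R 4.3.3 (TMM, filterByExpr with a minimum count of 10, robust quasi-likelihood F test, Benjamini-Hochberg over 14932 genes, called under 0.05). SE is the log2 fold change over the square root of F. Floors are 3 counts and cover counting error only. The alternatives comprised DESeq2 1.42.0 and limma-voom (limma 3.58.1, quality weights), scaling by RLE or by upper quartile, no filter, a mean of at least 50 counts, an adjusted p under 0.01, blocking on the replicate number, omitting single libraries, and dropping members that share exon bases with another gene. Every member is accounted for. Of each partner list, up to 5 called genes per direction with the smallest p are named, and lists under 5 genes in full; other partners named were chosen after their values were seen, and 1 called partner under the rule is not reported here. Members and lists were chosen with earlier results of these data known.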

Additional observations from a re-analysis of the deposited data

How the results depend on the processing

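All 11 tested members kept their direction in every alternative that gave them a value. All 8 called members stayed called with RLE and upper quartile scaling, DESeq2, limma-voom, no filter and the replicate block. With a mean of at least 50 counts Adgrl3 and Adgrf5 were not tested, which leaves 5 lower. At an adjusted p under 0.01, 1 member was higher and 4 lower, 900 and 835 of all genes, and 4 listed partners were higher. Without members that share exon bases with another gene, 0 were higher and 3 lower, since 7 tested members drop out by construction. Limma-voom called 3305 genes higher and 3289 lower of all genes, and 15 and 34 listed partners; the cause was not tested. Single libraries left out gave 4 to 9 members lower and 1 higher in each case, 967 to 2508 and 903 to 2543 of all genes higher and lower, and 4 to 11 and 10 to 29 partners, each highest value being without male replicate 3. Deviations of same-numbered libraries correlated at 0.3, -0.0533 and 0.198, so the numbers were not taken to pair the samples, and not every library correlated best with its own number. With the replicate block 1 member was higher and 8 lower, Adgrg2 being added (adjusted p = 0.0178), and 1619 and 1449 of all genes. Of the 16 untested members, with no more than 14 counts in any library, 13 were fitted with no filter and 0 were called. Limma-voom added Adgrl1 and Adgrg2 to the members called lower, and DESeq2 and no filter added Adgrg2.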
